A study of Bos taurus with 26 samples.

Results

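A set of 100 gene IDs was examined that kept the most level share of the reads across corpus luteum and endometrium of Holstein cows. An ID's level is given as CPM, its read count per 1000000 counts of the library. IDs with a mean CPM between 20 and 300 in both tissues entered the window, and the 100 with the smallest standard deviation (SD) of log2(CPM + 1) over all 26 libraries were taken. The window held 5384 of the 24616 IDs in the files, so the stable IDs were 1.86% of the window. They are described here as candidate reference transcripts. Their small SD and small differences between groups follow from this choice and are therefore given as descriptions.

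A reference transcript is one whose amount serves as the yardstick for others, most often in quantitative PCR, where the signal of a gene of interest is divided by that of the reference. A good reference is at the same level in every tissue, line and batch compared, and is abundant enough to be counted with little error. The corpus luteum is the gland that forms in the ovary from the ruptured follicle and secretes progesterone. The endometrium is the uterine lining that responds to that progesterone. Sequencing counts have to be put on a common scale before libraries are compared, and a transcript can be level on one scale and not on another.

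The study sequenced polyadenylated RNA from biopsies of corpus luteum and of the uterine horn on the same side, taken on day 13 of the oestrous cycle from cows of a line selected for high fertility (Fert+) and a line selected for low fertility (Fert-). There were 7 Fert+ and 5 Fert- corpus luteum libraries, and 8 Fert+ and 6 Fert- endometrium libraries. The labels give each library 1 of 4 batch numbers, without saying what a batch was, and the parity of the cow, which ran from 2 to 4. Batch 4 held no Fert- corpus luteum library. Biopsies are mixtures of cells, and a lower level from fewer cells of a type cannot be told apart from less RNA per cell.

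Total counts ran from 9627378 to 18008417 per library. None of the 24616 IDs matched a gene symbol in the tables used here (0 matches), so no gene name, function, cell type marker or sequence is given for any ID, and the tissue labels were not checked against markers. Libraries of one group differed beyond counting error. Over 74 pairs of such libraries, chi-square divided by its degrees of freedom started at 16.5 for all IDs and at 2.297 for the stable IDs, where counting error alone would give about 1. In corpus luteum, Fert+ replicates 15, 16, 18 and 19 stood apart from the other 8 libraries. Their scaling factors by the trimmed mean of M-values (TMM), a method that sets the typical log ratio between libraries to 0, were 0.959 to 1.00, against 0.784 to 0.890 in the rest of that tissue. In endometrium, Fert+ replicate 1 stood apart, with 14.2% of its counts in its 10 most abundant IDs, where the median of that tissue was 8.64%.

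The SD of the 100 stable IDs ran from 0.0775 to 0.143 on the log2 scale, with a median of 0.128, against a median of 0.376 in the other 5284 IDs of the window. In 75 of the 100, the highest library lay under 1.5 times the lowest, which was so for 39 of the 5284 others. The median ratio of highest to lowest library was 1.44 in the stable IDs and 2.63 in the others. The lowest count of any stable ID in any library was 204, so each value rested on more than a few reads.

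**Figure D1:**
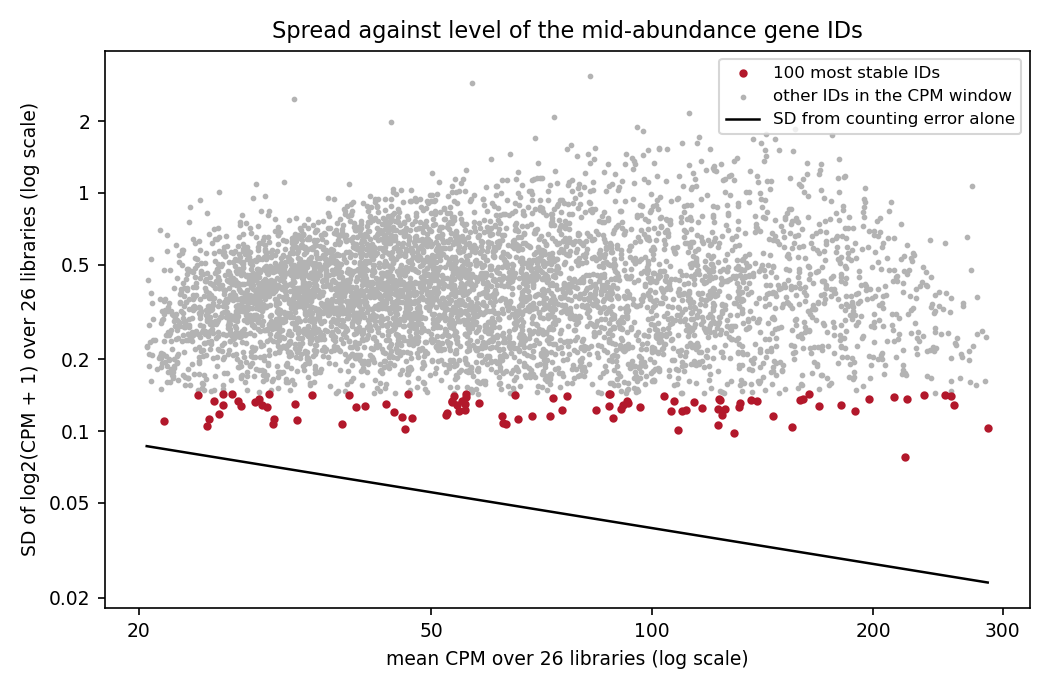
Each point is an ID in the CPM window, with its mean CPM over 26 libraries on the horizontal log axis and its SD of log2(CPM + 1) on the vertical log axis. The 100 stable IDs (red) lie at SDs of 0.0775 to 0.143 over the whole range of levels, below the other IDs (grey), and the black line is the SD that counting error alone would give.

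The stable IDs covered nearly the whole abundance window. Their mean CPM ran from 21.6 to 286 with a median of 70.7, against a median of 53.5 in the other IDs. There were 31 below 50 CPM, 33 from 50 to 100 CPM and 36 at 100 CPM or more, a level at which 20.04% of the others lay. CPM is not divided by transcript length, which was not at hand, so these levels say how well an ID was counted and not how many transcripts it had beside another ID.

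The remaining spread of most stable IDs was larger than the Poisson error of counting reads. The SD of a stable ID was a median of 2.71 times the SD that counting error alone would give at its mean count, with a range of 1.31 to 5.75. The same ratio had a median of 7.14 in the other IDs. In variance terms, counting error made up a median of 13.6% of a stable ID's spread and at most 58.2%. For 23 of the 100 the SD was within 2 times counting error, and for 16 it was over 4 times.

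ENSBTAG00000047747 had the smallest SD of all, 0.0775. Its lowest, median and highest values were 202, 223 and 236 CPM in the 12 corpus luteum libraries, against 195, 218 and 241 CPM in the 14 endometrium libraries. The tissues overlapped throughout, with means of 221 ± 10.1 CPM in corpus luteum and 220.3 ± 13.5 CPM in endometrium (SD, n = 12 and 14). Within corpus luteum the mean was 224 ± 7.96 CPM in Fert+ and 216 ± 11.9 CPM in Fert- (SD, n = 7 and 5). Within endometrium it was 220.5 ± 16.3 CPM in Fert+ and 220.1 ± 10.02 CPM in Fert- (SD, n = 8 and 6). Its highest library was 1.24 times its lowest, the smallest ratio among the stable IDs.

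ENSBTAG00000001329 came second, with an SD of 0.0979. Its lowest, median and highest values were 117, 124 and 135 CPM in corpus luteum, against 114, 132 and 155 CPM in endometrium. The corpus luteum libraries were closely packed, and the spread came mainly from endometrium, where Fert+ replicate 1 held the lowest value and Fert+ replicate 13 the highest. The SD of log2(CPM + 1) was 0.0553 in corpus luteum and 0.109 in endometrium.

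At the ends of the abundance range, ENSBTAG00000009761 had the highest mean, 286 CPM, and ENSBTAG00000019525 the lowest, 21.6 CPM. For ENSBTAG00000009761 the lowest, median and highest values were 251, 276 and 300.4 CPM in corpus luteum, against 252, 296 and 319.9 CPM in endometrium. For ENSBTAG00000019525 they were 19.4, 21.9 and 24.98 CPM in corpus luteum, against 19.6, 20.9 and 24.8 CPM in endometrium. The values of both IDs overlapped between tissues.

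The limit of 100 fell where IDs were dense. The last stable IDs were ENSBTAG00000006066 with an SD of 0.143416 and ENSBTAG00000013931 with an SD of 0.143444. The first IDs outside were ENSBTAG00000019471 with 0.143451 and ENSBTAG00000039916 with 0.143484. These SDs differ only from the fifth decimal on, so IDs just inside and just outside were equally level to the precision used elsewhere in the text.

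**Figure D2:**
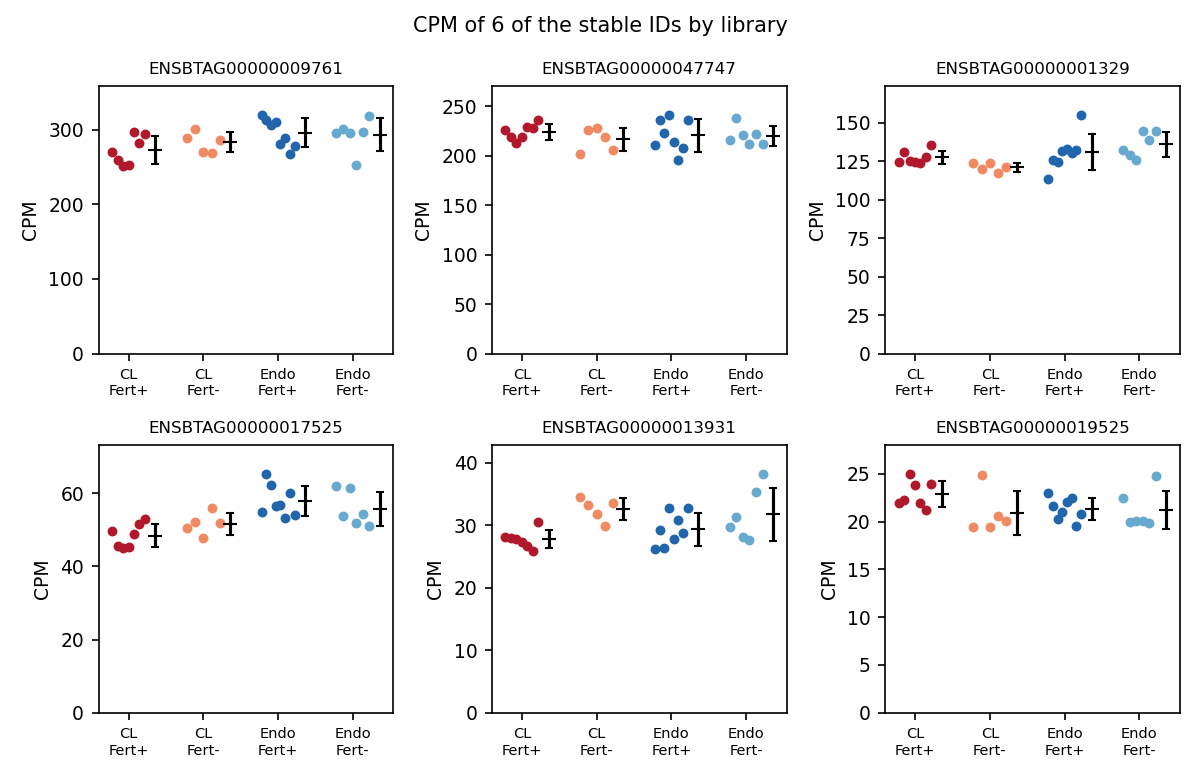
CPM of 6 stable IDs, 1 point per library, in corpus luteum (CL) Fert+ and Fert- and endometrium (Endo) Fert+ and Fert-, with the mean and SD of each group beside the points and the axes starting at 0. ENSBTAG00000047747 lies between 195 and 241 CPM in all 26 libraries, and ENSBTAG00000017525 has group means of 48.4 and 51.7 CPM in corpus luteum, against 57.9 and 55.8 CPM in endometrium.

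By library total, the mean log2(CPM + 1) of the stable IDs in corpus luteum minus that in endometrium had a median of -0.03 and ran from -0.19 to 0.14. It was above 0 for 43 IDs and below 0 for 57. The other IDs in the window had a median of -0.25, and 67.9% of them were below 0. No stable ID separated the tissues: for 0 of 100 did the 12 corpus luteum values and the 14 endometrium values fail to overlap, where 25.5% of all IDs tested did not overlap. The rule used this contrast, so the count is printed beside the share among all IDs and nothing is read from it.

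The IDs farthest from level in each direction were still close between tissues. ENSBTAG00000014161 was the farthest higher in corpus luteum, with 51.6, 57.9 and 65.7 CPM as lowest, median and highest there, against 47.1, 51.3 and 59.8 CPM in endometrium, a difference of 0.14. ENSBTAG00000027173 followed, with 129, 138 and 167 CPM in corpus luteum, against 115, 131 and 146 CPM in endometrium, a difference of 0.13. ENSBTAG00000017525 was the farthest lower, with 45.1, 49.98 and 56.0 CPM in corpus luteum, against 51.0, 55.7 and 65.3 CPM in endometrium, a difference of -0.19. ENSBTAG00000006066 was next, with 129, 159 and 170.2 CPM in corpus luteum, against 151, 170.1 and 199 CPM in endometrium, a difference of -0.15. All 4 IDs overlapped between the tissues.

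The stable IDs were level between the tissues on the scale on which they were chosen and not by TMM. On TMM-scaled CPM, the corpus luteum minus endometrium difference was above 0 for 100 of the 100 stable IDs, with a median of 0.29 and a range of 0.13 to 0.46. The other IDs in the window then had a median of 0.07. The median SD of the stable IDs over both tissues was 0.206 by TMM and 0.128 by library total, and the other IDs had 0.341 and 0.376. Within endometrium it was 0.123 by TMM and 0.124 by library total, and within corpus luteum 0.154 and 0.113. ENSBTAG00000047747, the most level ID by library total, had an SD of 0.205 and a difference of 0.33 on the TMM scale.

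**Figure D3:**
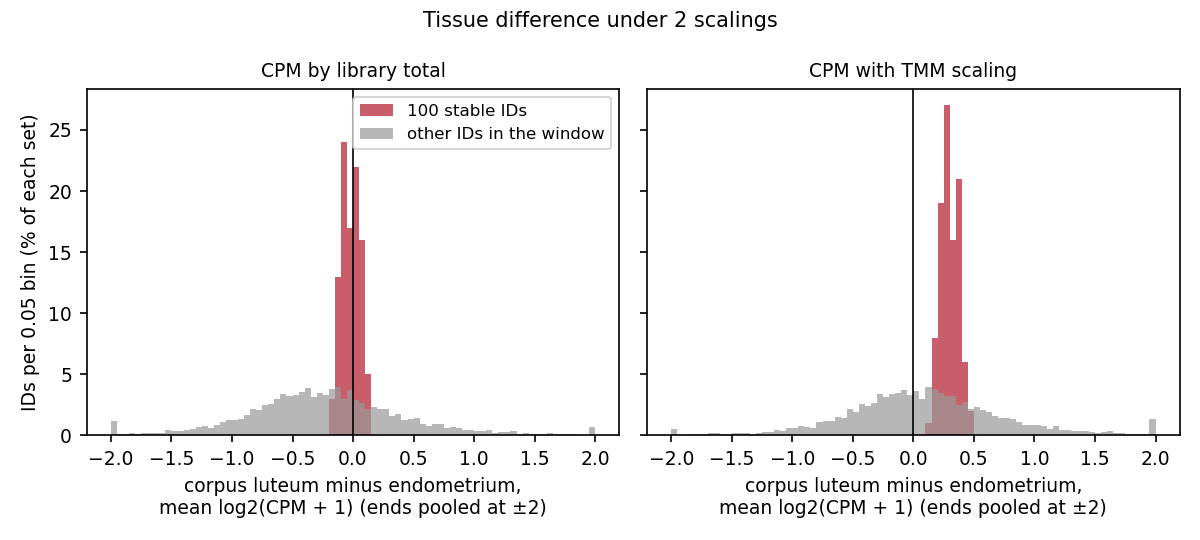
Difference of mean log2(CPM + 1), corpus luteum minus endometrium, for the 100 stable IDs (red) and the other 5284 IDs in the window (grey), as the share of each set per bin of 0.05, with values past 2 pooled in the end bins. By library total (left) the stable IDs lie around a median of -0.03, and by TMM (right) all 100 lie above 0 with a median of 0.29.

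The composition of the counts differed between the tissues too, and its part in the difference between the scales was not settled by these values. The 10 most abundant IDs of a library took 17.9% ± 1.46 of the counts in corpus luteum and 9.16% ± 1.71 in endometrium (SD, n = 12 and 14). TMM factors were 0.784 to 1.00 in corpus luteum and 1.01 to 1.16 in endometrium, with means of 0.889 and 1.11. The stable IDs together took 0.898% ± 0.0273 of the counts in corpus luteum and 0.913% ± 0.0366 in endometrium. When the 10 most abundant IDs of each library were left out of its total, the median difference of the stable IDs, corpus luteum minus endometrium, was 0.11, with 94 above 0. That total was tried after seeing the data.

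The edgeR quasi-likelihood test, fitted on all 14968 IDs that passed the count filter with batch and line in the model and Benjamini-Hochberg adjustment, gave counts that followed the scale. With TMM, 99 of the 100 stable IDs passed an adjusted p of 0.05, all higher in corpus luteum, where 73.3% of all IDs passed, 33.5% higher and 39.8% lower. ENSBTAG00000017525 was the only one that did not pass, with a log2 fold change of 0.14 ± 0.07 (SE) and an adjusted p of 0.0718. With library totals alone, 17 of the 100 passed, 4 higher and 13 lower in corpus luteum, where 76% of all IDs passed, 21% higher and 54.9% lower. With the geometric mean of the stable IDs themselves as the scale, 17 passed, 7 higher and 10 lower in corpus luteum, where 75.7% of all IDs passed, 21.8% higher and 53.9% lower. That scale sets the stable IDs' mean to level, so the near balance of their directions and their centre near 0 follow from it. These alternatives to TMM were chosen after seeing the data. All these fits treated the tissues as unpaired, and their p-values would be wrong if both tissues came from the same cows.

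The choice of scale also moved the split of all tested IDs. Of the IDs that passed, 45.8% were higher in corpus luteum with TMM, 27.7% with library totals and 28.8% with the stable IDs as scale. The median log2 fold change of all tested IDs, corpus luteum over endometrium, was -0.08 with TMM, -0.41 with library totals and -0.38 with the stable IDs as scale. Relative to that median, the stable IDs' own median lay above it on each of these scales, at 0.29 with TMM, -0.04 with library totals and -0.01 with the stable IDs as scale. Leaving out the 4 corpus luteum Fert+ libraries that stood apart moved the stable IDs' median with TMM to 0.50, with 100 of 100 passing, where 71.2% of all IDs passed.

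The tissue difference was also read within batches. The rule used these values, so a median near 0 by library total follows from the choice. The median over the stable IDs, corpus luteum minus endometrium, was -0.02 in batch 1, -0.09 in batch 2, -0.03 in batch 3 and 0.04 in batch 4. In the same order, 44, 18, 43 and 61 of the 100 IDs were higher in corpus luteum. By TMM the median was 0.31, 0.26, 0.36 and 0.19 in these batches. Higher in corpus luteum by TMM were 100, 99, 100 and 89 of the 100 IDs. Batch 2 held 2 libraries of each tissue, the fewest of the 4.

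Lists chosen by the same rule on TMM, RLE and upper-quartile scales shared no ID with the stable IDs. The 100 most level IDs on TMM-scaled CPM, on CPM scaled by relative log expression (RLE, the median-ratio method of DESeq2) and on upper-quartile-scaled CPM each had 0 IDs in common with them. The list by library totals without the 10 most abundant IDs had 47 in common. The TMM list had a median difference of -0.33 between corpus luteum and endometrium by library total and -0.01 by TMM. On the TMM scale, 98 of the stable IDs were still in the window, ranked from 182 to 2189 of 5496 with a median of 853, and 25 were among the most level 10%.

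A measure that needs no scale gave an intermediate picture. For each ID, the SD of its log2 ratio to every other ID in the window was averaged, which cancels any scaling of a library. By this measure 12 stable IDs were among the 100 lowest of the window, 62 were in the lowest 10% and 100 were below the middle rank. Of the other IDs, 9.01% were in the lowest 10%. Of the 100 lowest by this measure, 67 were on the TMM list. This measure too was added after seeing the data.

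Within each tissue the stable IDs were less spread than over both. The median SD was 0.113 in the 12 corpus luteum libraries and 0.124 in the 14 endometrium libraries, against 0.260 and 0.206 in the other IDs. The SD was below 0.2 in both tissues for all 100. In 60 of the 100 the SD was smaller in corpus luteum than in endometrium, which was so for 39.6% of the others. By line and tissue, the median SD was 0.0919 in Fert+ and 0.106 in Fert- corpus luteum, and 0.136 in Fert+ and 0.104 in Fert- endometrium.

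The libraries did not contribute evenly. The deviation of a library was taken as the median, over the stable IDs, of log2(CPM + 1) minus the ID's mean. Endometrium Fert+ replicate 1 was the lowest at -0.16, with 83 of 100 IDs below their own mean and 32 of 100 at their lowest of all libraries. Endometrium Fert+ replicate 5 was the highest at 0.10 and held the highest value for 15 IDs. Endometrium Fert- replicate 14 lay at 0.09 and held the highest value for 18. In corpus luteum the range was from -0.09 in Fert- replicate 28 to 0.06 in Fert+ replicate 24.

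**Figure D4:**
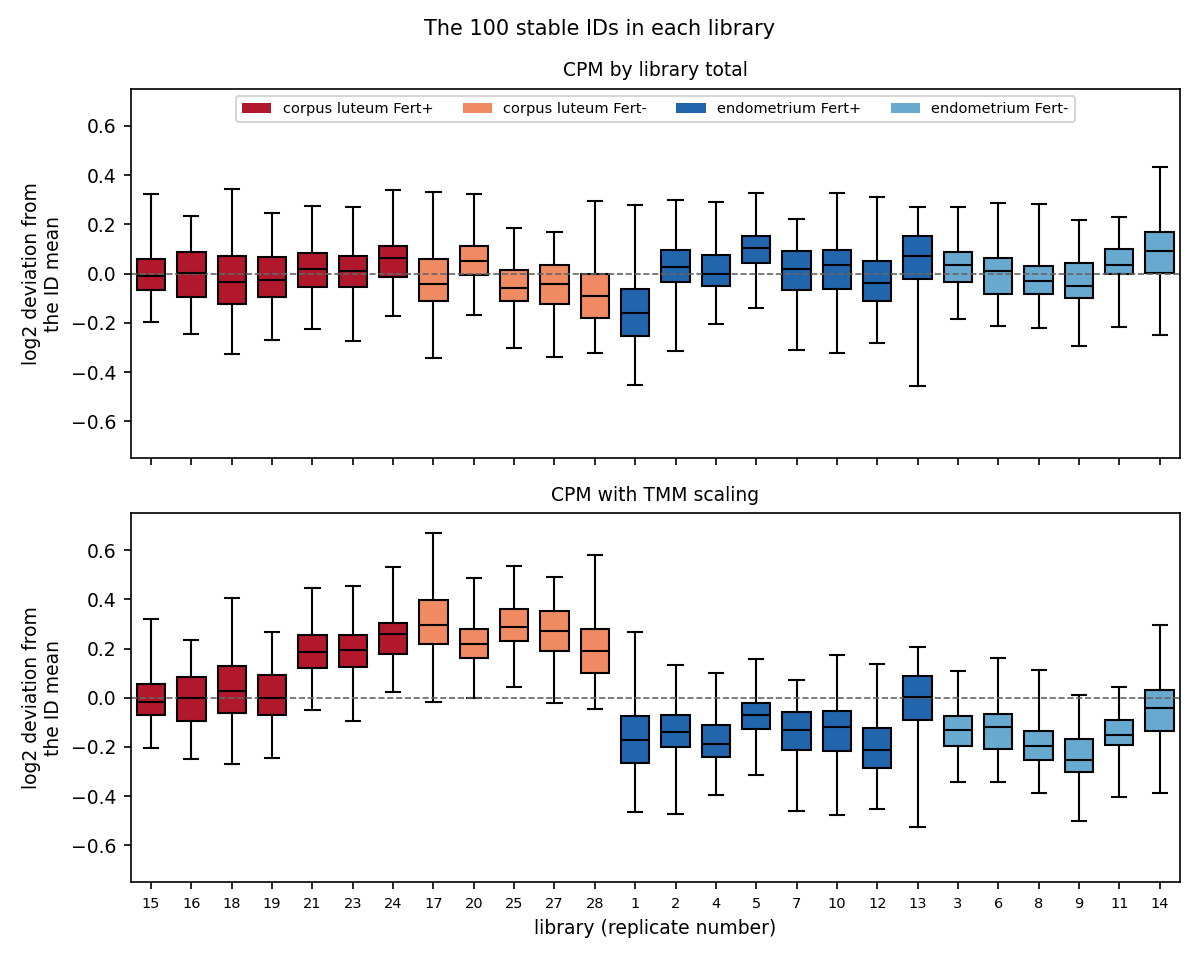
Deviation of the 100 stable IDs from their own mean log2 level in each library, by library total (top) and by TMM (bottom), with boxes for the quartiles and median and whiskers for the lowest and highest ID. By library total the box of endometrium Fert+ replicate 1 is the lowest, with a median of -0.16, and by TMM the corpus luteum Fert+ replicates 15, 16, 18 and 19 lie below the other corpus luteum libraries.

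By TMM the 4 Fert+ corpus luteum libraries that stood apart had medians of -0.02, 0.00, 0.03 and -0.00 (replicates 15, 16, 18 and 19), while the other 8 corpus luteum libraries lay between 0.19 and 0.30. By library total the same 4 lay between -0.03 and 0.00, inside the range of the other corpus luteum libraries. Without these 4 libraries, 76 of the 100 IDs were chosen again by the rule. Without endometrium Fert+ replicate 1, 86 were.

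The stable IDs varied together only weakly within a tissue by library total. The median Pearson correlation over 4950 pairs of stable IDs was 0.13 by library total and 0.58 by TMM in the 12 corpus luteum libraries, and 0.24 on both scales in the 14 endometrium libraries. Pairs of other IDs had medians of 0.13 and 0.01 in corpus luteum and 0.08 and 0.00 in endometrium. All pairs share the same libraries and totals, so these values describe the tables only. Dividing each library by the median of the stable IDs gave them a median SD of 0.114.

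No stable ID passed the edgeR test between the lines in corpus luteum with batch as the other term. The rule took in the differences between lines, so these counts are descriptions and nothing is read from them. With edgeR and TMM, 0 of the 100 passed an adjusted p of 0.05, where 0% of the 13462 IDs tested passed. At an unadjusted p under 0.05 there were 10 of the 100, where 21.1% of all IDs passed that limit. DESeq2 called 1 stable ID, lower in Fert+, and 195 of all IDs (1.45%), and limma-voom called 0 of both. The median log2 fold change of the stable IDs, Fert+ over Fert-, was -0.12 with TMM, with 13 above 0, and 0.04 with library totals, with 69 above 0. Without the 4 Fert+ libraries that stood apart the TMM median was -0.02, and 1 of 100 had an unadjusted p under 0.05, where 3.88% of all IDs did.

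The corpus luteum count depended on the terms of the model. Without the batch term 5 of the 100 stable IDs passed, all lower in Fert+, where 8.85% of all IDs passed. With batch and parity 39 passed, all lower in Fert+, where 29.8% of all IDs passed. Batch 4 held Fert+ corpus luteum only and batch 2 held 1 library of each line. Parity 2 in corpus luteum was held only by Fert+ replicates 21 and 24, both of batch 1. With batch and parity as terms, the line contrast thus came from batches 2 and 3 alone. It set Fert+ replicate 19 against Fert- replicate 17, and Fert+ replicate 16 against Fert- replicates 25 and 27. Fert+ replicates 16 and 19 were among the 4 that stood apart. Within batches 1, 2 and 3 the median difference, Fert+ minus Fert-, was 0.05, 0.01 and 0.06 by library total and 0.01, -0.31 and -0.18 by TMM.

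The smallest p in corpus luteum belonged to ENSBTAG00000013931, lower in Fert+. It had 26.0, 27.8 and 30.5 CPM as lowest, median and highest in the 7 Fert+ libraries, against 34.5, 33.3, 31.8, 29.9 and 33.6 CPM in the 5 Fert- libraries. Only Fert+ replicate 24 reached into the Fert- range. The edgeR log2 fold change was -0.39 ± 0.10 (SE), with an unadjusted p of 0.00215 and an adjusted p of 0.212. ENSBTAG00000000134 followed with 39.5, 41.8 and 45.5 CPM in Fert+, against 45.2, 46.0, 43.7, 49.2 and 46.3 CPM in Fert-. Its edgeR log2 fold change was -0.27 ± 0.09 (SE), with an adjusted p of 0.212.

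In the other direction the fits with TMM gave smaller changes, while differences by library total were larger. The mean log2(CPM + 1) by library total, Fert+ minus Fert-, differed by 0.30 for ENSBTAG00000033983 and 0.27 for ENSBTAG00000013449. For ENSBTAG00000013931 and ENSBTAG00000000134 it differed by -0.22 and -0.12. ENSBTAG00000033983 had 83.7, 98.5 and 109 CPM as lowest, median and highest in Fert+ corpus luteum, against 76.9, 84.1, 81.1, 80.04 and 72.0 CPM in Fert-, and an edgeR log2 fold change of 0.11 ± 0.09 (SE) with an adjusted p of 0.432. ENSBTAG00000013449 had 113, 123 and 133 CPM in Fert+, against 94.3, 111, 102, 109 and 96.0 CPM in Fert-. Its groups did not overlap by CPM, and its edgeR log2 fold change with TMM was 0.10 ± 0.09 (SE) with an adjusted p of 0.517. By CPM, 2 of the 100 stable IDs did not overlap between the corpus luteum lines, where 2.84% of all IDs tested did not. The other was ENSBTAG00000003530, named after its values were seen, with 257, 265 and 273 CPM in Fert+, against 239.7, 244, 243, 256 and 229.6 CPM in Fert-.

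In endometrium the lines were closer. The rule took in this contrast too, so the counts are again descriptions. With edgeR and TMM, 0 of the 100 stable IDs passed, where 0% of the 14243 IDs tested passed, and 1 of the 100 had an unadjusted p under 0.05, where 3% of all IDs did. DESeq2 called 0 stable IDs and 8 of all IDs (0.0562%), and limma-voom called 0 of both. The stable IDs' median log2 fold change, Fert+ over Fert-, was 0.02 with TMM and 0.00 with library totals. By CPM, 0 of 100 had groups that did not overlap, where 0.0211% of all IDs did not.

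ENSBTAG00000007346 had the smallest p in endometrium. Its lowest, median and highest values were 27.1, 29.9 and 37.7 CPM in Fert+, against 25.6, 27.96 and 31.1 CPM in Fert-, and the edgeR log2 fold change was 0.16 ± 0.07 (SE) with an adjusted p of 0.981. ENSBTAG00000013282 was next in this direction, with 75.05, 96.7 and 99.95 CPM in Fert+, against 75.9, 87.5 and 99.5 CPM in Fert-. In the opposite direction, ENSBTAG00000012341 had 40.2, 42.8 and 46.8 CPM in Fert+, against 41.1, 46.7 and 51.1 CPM in Fert-. ENSBTAG00000000025 had 129, 154 and 162 CPM in Fert+, against 151, 160.4 and 173 CPM in Fert-. The lines overlapped for all 4 of these IDs.

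Batches gave no stable ID past the adjusted limit with edgeR. The rule took in the differences between batches, so these counts are descriptions and nothing is read from them. In corpus luteum, 0 of 100 passed an edgeR test of the batch terms together, where 0% of all IDs passed, and 1 of 100 had an unadjusted p under 0.05, where 8.34% of all IDs did. In endometrium, 0 of 100 passed, where 0.0562% of all IDs passed, and 5 of 100 had an unadjusted p under 0.05, where 13.2% of all IDs did. DESeq2 called 0 stable IDs and 264 of all IDs (1.96%) between the corpus luteum batches. Between the endometrium batches it called 4 stable IDs and 820 of all IDs (5.76%).

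Stability was next read in libraries that took no part in the choice. Each library was left out in turn, the rule was applied to the other 25, and the deviation of the left-out library from the mean log2(CPM + 1) of the other libraries of its tissue was taken for each ID. The median absolute deviation of the 100 chosen IDs was smaller than that of the other IDs in 26 of 26 libraries. Over the 26 libraries, the chosen IDs had a median of 0.0959, with a range of 0.05998 to 0.238. The other IDs had a median of 0.148, with a range of 0.110 to 0.332. The 26 lists share libraries, so no p is attached to this count.

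The gain differed between libraries. As the ratio of other to chosen IDs, it ran from 1.02 in endometrium Fert+ replicate 1, with 0.238 in the chosen and 0.244 in the other IDs, to 3.82 in corpus luteum Fert+ replicate 15, with 0.05998 and 0.229. Corpus luteum Fert- replicate 17 had 0.129 in the chosen and 0.332 in the other IDs. The corpus luteum libraries had a median of 0.0943 in the chosen and 0.208 in the other IDs, and the endometrium libraries 0.0985 and 0.130. With a whole batch left out in place of 1 library, the medians were 0.0993 and 0.163. Lists chosen and read by TMM gave 0.0894 and 0.145. The medians of the chosen IDs on both scales differed by less than the spread between libraries.

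**Figure D5:**
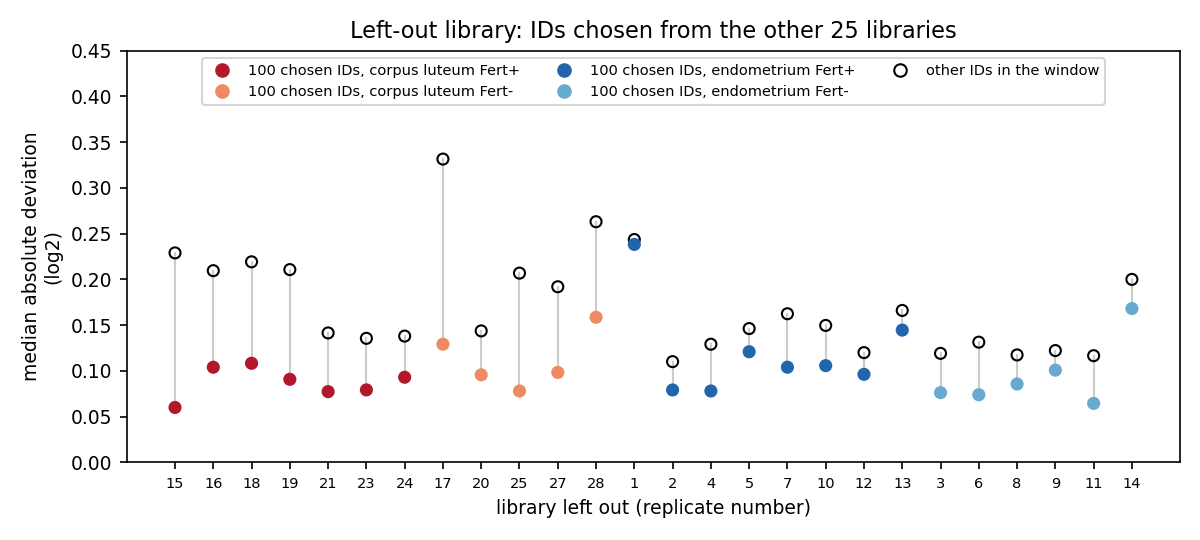
For each library left out of the choice, the median absolute log2 deviation from the other libraries of its tissue, for the 100 IDs chosen from the other 25 libraries (filled) and for the other IDs in the window (open). The filled point is the lower one in all 26 libraries, and in endometrium Fert+ replicate 1 the points nearly meet at 0.238 and 0.244.

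IDs chosen in one tissue were read in the other, which took no part in that choice. The 100 most level IDs by endometrium alone had a median SD of 0.0885 there and 0.213 in corpus luteum, where the other IDs had 0.257, and 64 of the 100 lay below the others' median. The 100 most level IDs by corpus luteum alone had a median SD of 0.0808 there and 0.151 in endometrium, where the other IDs had 0.206, and 90 of the 100 lay below the others' median. The other IDs in these comparisons all lay in the CPM window of both tissues, and the chosen IDs were not held to that. Of the endometrium list 91 of 100 lay in the window of corpus luteum, and of the corpus luteum list 94 of 100 in that of endometrium. The single-tissue lists had 7 IDs in common. The stable IDs over both tissues included 20 IDs of the corpus luteum list and 12 of the endometrium list, each of which had 100 IDs.

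The membership was also read in parts of the data. Fert+ libraries alone gave 45 of the 100 IDs again, and Fert- libraries alone gave 57. Without 1 library, between 80 and 96 of the 100 were chosen again, the fewest without endometrium Fert- replicate 14. Without batch 1, which held 9 of the 26 libraries, 50 were chosen again.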

How the data were processed

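Per the labels' protocols, the tissue was rinsed, freed of connective tissue and snap-frozen before TRIzol extraction, and the library kit was TruSeq. That kit was taken here to leave strand unmarked, which the name TruSeq alone does not settle. According to the submitters' processing notes, STAR 2.3.0, featureCounts, Trim Galore, FastQC 0.10.0 and CASAVA 1.9 were used, with the UMD3.1 build. Which annotation was counted, and how reads with several alignments were treated, is not stated in these sources, so IDs that overlap or resemble another gene are uncertain. The authors deposited whole-number counts per gene ID, not normalised, with 24616 IDs per library. All 26 libraries were used.

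CPM was computed from these counts by library total over all IDs, and log2(CPM + 1) was used for SDs and differences. No ID matched a symbol in the tables used here, so the 8 gene lists and the markers of 6 cell types that had been drawn up could not be tested. Counting SD is the Poisson error of each count carried to the log2 scale and pooled over libraries. Scaling factors by TMM, RLE and upper quartile came from edgeR. Comparisons used edgeR's quasi-likelihood test with robust dispersion, its default filter on low counts, TMM and Benjamini-Hochberg adjustment over all IDs tested, with batch and line as terms between tissues and batch as a term between lines. DESeq2 and limma-voom were alternatives. The test and the rule were run on simulated data first. The simulated data for the rule held no difference in level between tissues, so that run says nothing about the choice of scale. Versions were R 4.3.3, edgeR 4.0.16, limma 3.58.1, DESeq2 1.42.0, Python 3.11.15, numpy 2.4.6 and pandas 2.3.3.

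The stable IDs, lists and alternatives were chosen with earlier results of these data known. The IDs named were the 2 with the smallest SD, the 2 just inside and just outside the limit, the 2 farthest in each direction between tissues, the 2 with the smallest p in each direction between lines in each tissue, and those with the highest and the lowest mean CPM. Nothing in the labels says whether every library had a cow of its own, so p-values cover only the spread between these samples, which may be technical. Nor do the labels tie the tissues of a cow together, although some library numbers in the tissues run in parallel. Tissues were compared as unpaired, and p-values between them would be wrong if both tissues came from the same cows.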

Additional observations from a re-analysis of the deposited data

Results flagged for a closer look

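Single libraries lay far from the rest of their group in 7 of 92 sets of values examined. Each set held 1 measure in 1 group of 5 to 8 libraries. The measures were a named ID's CPM, the left-out deviation, the stable IDs' median deviation by library total or TMM, and their share of the counts. The mark was a gap to the nearest library that took more than Dixon's 95% critical share of the group's range. Chance gives about 1 in 20 such marks, or 4.6 here.

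The left-out deviation of the chosen IDs was 0.238 in endometrium Fert+ replicate 1, with the next highest Fert+ library at 0.145. It was 0.168 in endometrium Fert- replicate 14, with the next highest Fert- library at 0.101. In Fert- replicate 14, ENSBTAG00000014161 had 57.1 CPM, with the next highest at 51.7 CPM. In endometrium Fert+ replicate 13, ENSBTAG00000001329 had 155 CPM, with the next at 133 CPM, and ENSBTAG00000019471, the first ID outside the limit of 100, had 59.2 CPM, with the next at 46.8 CPM. ENSBTAG00000009761 had 252 CPM in endometrium Fert- replicate 9, with the next lowest at 294.9 CPM. In corpus luteum Fert- replicate 20, ENSBTAG00000019525 had 24.9 CPM, with the next highest at 20.6 CPM. A cause was not tested for any of these values.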

How the results depend on the processing

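Among the values computed under alternative settings, 207 stayed within the limits set for a count or a spread, 18 moved and 4 gained calls. Many of the 207 only left out 1 library, and many were counts of 0 that stayed at 0. The tally thus does not say how far the list depends on the scale. The direction of a difference was not part of these labels. Of the 100 stable IDs, 0 were chosen again on TMM-scaled, RLE-scaled or upper-quartile-scaled CPM, and 0 without the CPM window, where all 100 places went to IDs with no count. The rule chose 29 again by the SD pooled within tissues, 50 without batch 1, 45 from Fert+ libraries alone, 57 from Fert- libraries alone, 20 from corpus luteum alone and 12 from endometrium alone. Settings added after seeing the data gave 12 by the pairwise log-ratio measure and 47 with totals that left out the 10 most abundant IDs. Other pseudocounts (0.5 and 5), a window of 10 to 600 CPM and the coefficient of variation kept 97, 86, 92 and 94. The median SD of the stable IDs was 0.206 by TMM, 0.237 by RLE and 0.237 by upper quartile. Tissue calls among them were 17 with library totals and 17 with their own geometric mean as scale, against 99 with TMM. Between the corpus luteum lines, DESeq2 called 1, the fit without batch 5 and the fit with batch and parity 39, and DESeq2 called 4 between endometrium batches; the cause was not tested.

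Leaving out each library in turn gave 80 to 96 shared IDs, median SDs of 0.121 to 0.130 and 99 to 100 tissue calls, and 0 to 0 calls between lines or batches in each tissue. Over all IDs, edgeR called 0 between the corpus luteum lines, DESeq2 195, the fit without batch 1191 and the fit with batch and parity 4006. Between the same lines, leaving out corpus luteum Fert+ replicate 23 gave 908 edgeR calls over all IDs and 0 among the stable IDs. Between the endometrium lines, edgeR called 0 and DESeq2 8 of all IDs. Between batches, edgeR called 0 and DESeq2 264 of all IDs in corpus luteum, against 8 and 820 in endometrium. The labels give no number to libraries of both tissues and tie none to a cow. For 9 of the 12 corpus luteum libraries, though, an endometrium library numbered 14 lower had the same line, batch and parity, so cows may have given both tissues. Deviations from the group means correlated at -0.02 to 0.18 within these 9 candidate pairs, with a median of 0.12. The median over all other pairs of a corpus luteum and an endometrium library was -0.01. In 5 of the 9 the correlation was over 0.1, and in 5 corpus luteum correlated best with its own partner. Pairing by cow is thus possible but is not established by the labels. With the candidate pairs as a replicate block, tried after seeing the data, 79 of the stable IDs were called between tissues by TMM, all higher in corpus luteum, and 1 with library totals. The same 18 libraries without the block gave 88 by TMM. Counting error limits the least abundant stable IDs most, where it made up as much as 58.2% of the variance.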
